A study of Mus musculus with 2 samples.

Results

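The genes described here are 6 genes of Golgi cells, the inhibitory interneurons of the granule layer of the cerebellum: Gad1, Gad2, Slc6a5, Slc32a1, Lgi2 and Klhl1. They were chosen by symbol, each symbol matched 1 row of the deposited gene tables by its gene ID without version, and the tables hold 43346 Ensembl genes in all. The study captured 2 areas of the granule layer by laser dissection from adult male wild-type C57Bl6 mouse tissue (strain label B6NCrl) aged 8 months and made 1 Smart-seq library of each. Smart-seq copies and amplifies polyadenylated RNA from few cells. The labels give an area of 18000 square microns, a starting quantity of 50 cells, total RNA, added spike-in RNA and biological replicate numbers 1 and 2. Both areas carry 1 donor label, whether they came from 1 animal is not stated, and the design holds 1 group with no treated or control samples. All spreads below are therefore between 2 areas (n = 2), and may be technical.

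Golgi cells receive excitation from mossy fibres and from the parallel fibres of granule cells, and inhibit granule cell dendrites in the glomeruli of the layer. Many of them release both GABA and glycine. GABA is made from glutamate by the glutamate decarboxylases that Gad1 and Gad2 encode, glycine is taken up from outside by the transporter that Slc6a5 encodes, and both are packed into vesicles by the carrier that Slc32a1 encodes. Gad1, Gad2 and Slc32a1 do not set Golgi cells apart, since Purkinje cells and molecular layer interneurons also make and load GABA, whereas Slc6a5 marks glycine-releasing neurons. Lgi2 encodes a secreted leucine-rich repeat protein, and Klhl1 a kelch protein that binds actin and is also known from Purkinje cells.

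The libraries were of like depth, with 19962271 counts on Ensembl genes in replicate 1 and 19261911 in replicate 2. Levels are in TPM, transcripts per 1000000, a unit set per transcript length so that genes can be compared with each other. Taking 1 TPM together with 5 counts as the lower limit of detection, 4 of the 6 genes were detected in each library, and 5 had the summed count of at least 10 needed to compare the areas. The deposited posterior SD of the count was 0 for each of the 6 genes in both libraries, so the estimate shared no reads between these genes and others.

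Of the 6 genes, Gad1, which encodes a GABA-synthesizing enzyme, had the highest TPM in both areas. Gad1 (ENSMUSG00000070880.6, chr2:70553072-70602014, plus strand, GRCm38) stood at 20.9 TPM in replicate 1 and 18.3 TPM in replicate 2, a mean of 19.6 ± 1.81 (SD, n = 2), from 1033 and 899 counts. This level lay above that of 79.7% and 78.1% of the 21474 protein-coding genes in the 2 libraries. The areas differed little: the deposited intervals on TPM ran from 19.5 to 22.8 and from 17.2 to 20.6 and overlapped. Set against Gabra6, which encodes a receptor subunit of granule cells, the Gad1 level was 2.26% and 1.69% of the Gabra6 TPM.

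Gad2 (ENSMUSG00000026787.3, chr2:22622205-22693874, plus strand), which encodes the decarboxylase tied to synaptic vesicle membranes, stood at 7.47 TPM in replicate 1 and 4.07 in replicate 2, a mean of 5.77 ± 2.40 (SD, n = 2). Its counts were 626 and 269, and its deposited TPM intervals, 6.32 to 8.63 and 3.13 to 5.06, did not overlap. Replicate 1 was the higher area. The ratio of Gad1 to Gad2 in whole-gene TPM was accordingly 2.79 in replicate 1 and 4.50 in replicate 2. Summed over all transcripts, Gad1 was thus above Gad2 in both areas and by a larger factor in replicate 2. The order did not hold for the main coding transcripts alone. Gad1-201 stood at 1.80 and 2.58 TPM and Gad2-201 at 6.35 and 2.71, with overlapping deposited intervals in replicate 2.

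**Figure D1:**
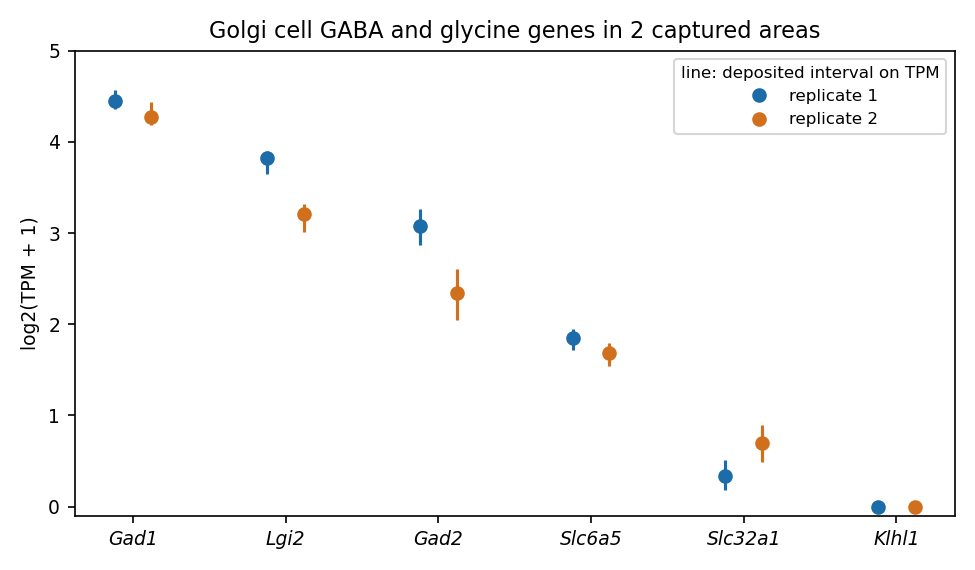
Level of each gene in each captured area, as log2(TPM + 1) on the vertical axis. Points are the 2 libraries and vertical lines the deposited interval on TPM. Gad1 was highest at 20.9 and 18.3 TPM, Gad2 and Lgi2 had intervals that do not overlap, and Klhl1 was at 0 in both.

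Most Gad1 reads were assigned to a transcript that the annotation does not call coding. Gad1-206 is annotated as a processed transcript of 2996 bases, and it took 88.5% of the Gad1 TPM in replicate 1 and 85.9% in replicate 2 (mean 87.2% ± 1.84, SD, n = 2). The full-length coding transcript Gad1-201, of 3355 bases, took 8.64% and 14.1%. In counts, Gad1-206 had 917 and 759 and Gad1-201 had 101 and 140. The 2 transcripts share 2919 bases, 97.4% of Gad1-206 and 87.0% of Gad1-201, including 1700 of the 1779 coding bases. The division therefore rested on little sequence: 77 bases belong to Gad1-206 and not to Gad1-201, and 436 belong to Gad1-201 and not to Gad1-206. The deposited posterior SD of the 2 counts was 28.9 and 35.7 for Gad1-206 and 30.4 and 37.3 for Gad1-201. Of 9690 protein-coding genes with counts in both areas and more than 1 transcript, 16.0% likewise had over 50% of their TPM on transcripts not annotated as protein coding in both libraries.

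Some of the sequences that tell these transcripts apart, and some for Gad2, are shown because the shares given here depend in part on them. The coding stretches are only part of what sets their transcripts apart, 436 bases for Gad1-201 and 5155 for Gad2-201. All sequences were read from the GENCODE M21 transcripts on GRCm38, plus strand, 5′ to 3′. Capitals mark the start codon in the coding stretches, and in the last sequence the AG that ends the intron of the coding transcript. The first is the coding part of the second exon of Gad1-201 (chr2:70563832-70563910), which Gad1-206 lacks. The next is the first exon of Gad1-206 (chr2:70566377-70566453), which begins 4335 bases downstream of the start of Gad1-201 and lies in an intron of it. The third is the coding part of the first exon of Gad2-201 (chr2:22622663-22622738). The last is the stretch of 132 bases that belongs to Gad2-202 and not to Gad2-201 (chr2:22623304-22623435), the end of the first intron of Gad2-201.
Gad1-201 coding start: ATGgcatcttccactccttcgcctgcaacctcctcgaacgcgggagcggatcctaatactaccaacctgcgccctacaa
Gad1-206 first exon: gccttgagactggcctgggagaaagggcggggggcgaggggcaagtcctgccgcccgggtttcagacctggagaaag
Gad2-201 coding start: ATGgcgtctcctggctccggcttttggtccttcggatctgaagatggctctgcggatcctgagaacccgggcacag
Gad2-202 own stretch: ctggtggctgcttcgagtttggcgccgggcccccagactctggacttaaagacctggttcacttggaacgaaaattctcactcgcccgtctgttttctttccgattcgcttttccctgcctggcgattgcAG

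**Figure D2:**
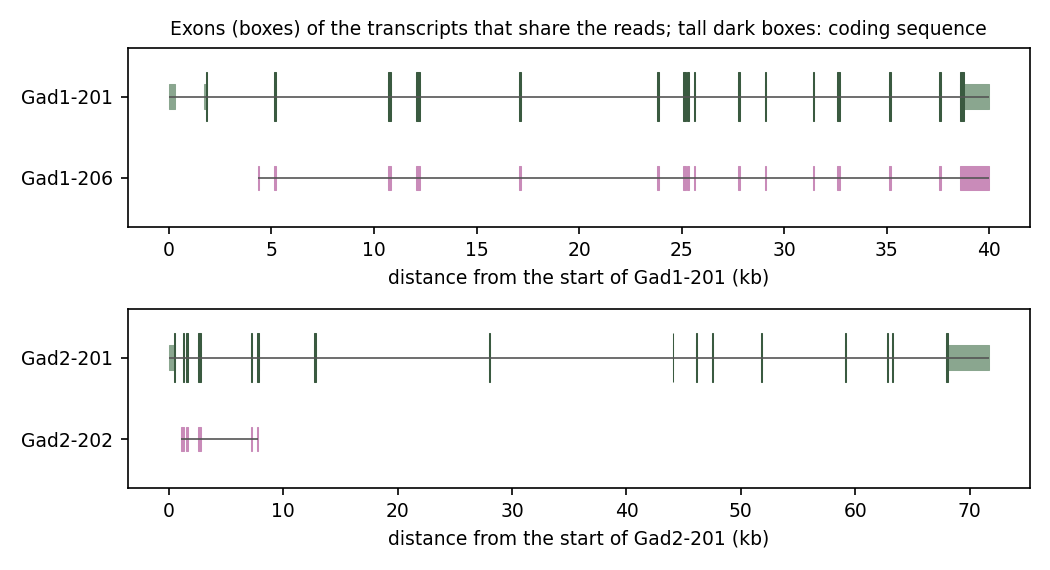
Exons of the Gad1 and Gad2 transcripts that share the reads, by distance in kb from the start of the coding transcript; tall dark boxes are coding sequence. Gad1-206 shares every exon after the second with Gad1-201 apart from the last 2 bases of the last exon, while Gad2-202 covers 5 exons at the start of Gad2.

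Gad2 showed the reverse pattern in its transcripts, and it bears on the size of the difference between the areas. The coding transcript Gad2-201, of 5744 bases, held 614 counts in replicate 1 and 255 in replicate 2. The short processed transcript Gad2-202, of 721 bases, held 12.0 and 14.1 counts, which is 1.92% and 5.26% of the Gad2 count. Because TPM is set per length, those few reads came to 15.1% and 33.5% of the Gad2 TPM. The deposited intervals on Gad2-202, 0.259 to 2.45 TPM and 0.544 to 2.45 TPM, overlapped almost entirely. For Gad2-201 alone the TPM was 6.35 and 2.71, 2.34-fold higher in replicate 1, with intervals that did not overlap, at 5.65 to 6.65 and 2.29 to 2.95. For the whole gene the TPM was 1.84-fold higher in replicate 1, while the counts per 1000000 gene counts, 31.4 and 14.0, were 2.25-fold higher (95% exact binomial interval 1.94 to 2.60, counting error only). The gene-level TPM ratio of Gad2 thus lay 1.22-fold below its count ratio. Among 16173 genes with a value in both areas, 9.93% had TPM and count ratios more than 1.2-fold apart.

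**Figure D3:**
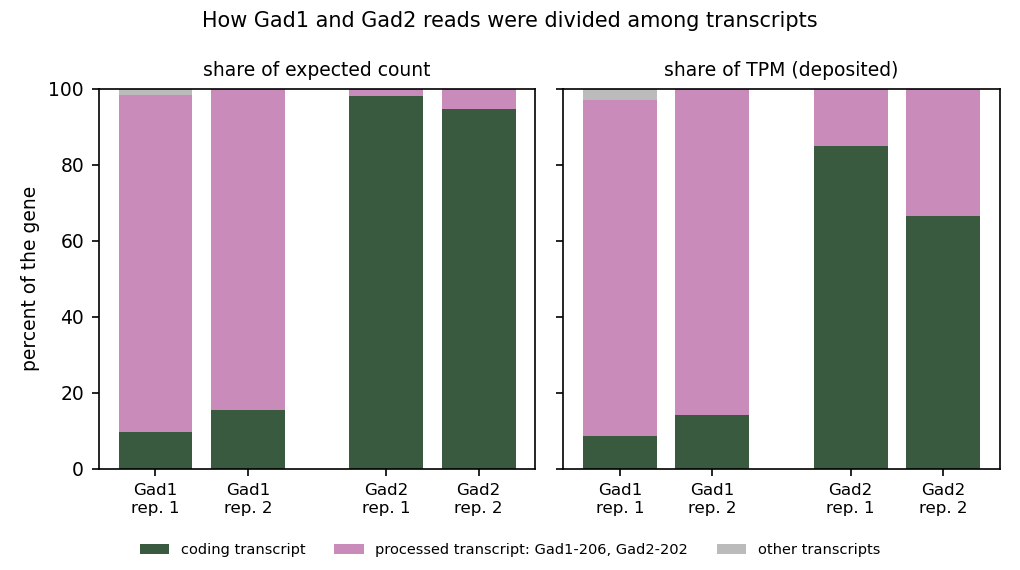
Share of the expected count (left) and of the TPM (right) of Gad1 and Gad2 held by each transcript, in percent of the gene, in each replicate. Gad1-206 took 88.5% and 85.9% of the Gad1 TPM, and Gad2-202 took 1.92% and 5.26% of the Gad2 count but 15.1% and 33.5% of its TPM.

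The glycine gene Slc6a5 was present at a low and similar level in both areas. Slc6a5 (ENSMUSG00000039728.10, chr7:49910146-49963856, plus strand) stood at 2.61 TPM in replicate 1 and 2.21 in replicate 2, a mean of 2.41 ± 0.283 (SD, n = 2), from 312 and 257 counts. It ranked above 54.7% and 53.8% of protein-coding genes, at 0.282% and 0.203% of the Gabra6 TPM. The deposited intervals, 2.29 to 2.86 and 1.92 to 2.46, overlapped. Every Slc6a5 count was assigned to Slc6a5-201, of 7065 bases. Slc6a5-202, of 2467 bases, was listed at 0 and has 1 base of its own, so these data hold little that could place a read on it.

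The vesicular carrier gene Slc32a1, needed by neurons that release GABA or glycine, was lower still. Slc32a1 (ENSMUSG00000037771.11, chr2:158610767-158615748, plus strand) stood at 0.260 TPM in replicate 1 and 0.620 in replicate 2, a mean of 0.440 ± 0.255 (SD, n = 2), from 12 and 28 counts. It was under the detection level in both areas, and it was the single gene of the 5 compared that was higher in replicate 2. Per 1000000 gene counts it was 2.42-fold higher there, with a wide 95% exact binomial interval of 1.19 to 5.22 that covers counting error only. Its deposited TPM intervals, 0.134 to 0.422 and 0.403 to 0.853, overlapped. On the TPM scale, Gad1 stood 80.3-fold above Slc32a1 in replicate 1 and 29.5-fold in replicate 2, and Slc6a5 stood 10.04-fold and 3.56-fold above it. Gm14205, an annotated antisense gene over the first exon of Slc32a1, had 0 counts in both libraries, and Gad1os, antisense at the start of Gad1, had 1 and 3. Gm14204, on the minus strand, lies just before the annotated start of Slc32a1 without overlapping it. It had 122 and 189 counts, more than Slc32a1 and also higher in replicate 2. Whether strand was used in counting is not given in the sources used here. If it was not, reads in the overlap of a gene and an antisense gene could not be told apart. The deposited posterior SD of the count was 0 for Gad1 and Slc32a1, so the estimate shared none of their reads with another gene.

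The remaining genes, Lgi2 and Klhl1, lay at opposite ends. Lgi2 (ENSMUSG00000039252.7, chr5:52533517-52566462, minus strand) stood at 13.1 TPM in replicate 1 and 8.24 in replicate 2, a mean of 10.7 ± 3.45 (SD, n = 2), from 416 and 254 counts. It was second in level to Gad1 in both areas, and its deposited intervals, 11.5 to 14.0 and 7.06 to 9.02, did not overlap. Klhl1 (ENSMUSG00000022076.9, chr14:96102736-96519102, minus strand) had 0 counts in both areas. A count of 0 allows up to 3 counts, which for Klhl1 is 0.0435 TPM in replicate 1 and 0.0448 in replicate 2, by counting error only. Klhl1 therefore gave no sign of Golgi cells here. Since Gad1, Gad2 and Slc32a1 are shared with other inhibitory neurons, Slc6a5, at 2.61 and 2.21 TPM, and Lgi2 were what remained of the 6. Whether their reads came from Golgi cells was not tested.

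Both genes were counted on shorter models than a later annotation gives. The deposited lengths were 1950 bases for Lgi2-201 and 4122 for Klhl1-201, against 6456 and 6645 in GENCODE M21, and the lengths of the transcripts of the other 4 genes were the same in both. The coding sequences are 1650 and 2253 bases. Reads from the additional 4506 and 2523 bases were outside the deposited models, so the values of Lgi2 and Klhl1 cover part of the later transcript.

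In order of TPM the genes ran Gad1, Lgi2, Gad2, Slc6a5, Slc32a1, Klhl1 in both areas. Neighbours in this order were further apart than the deposited intervals within each area. Across areas the ranges of Lgi2 and Gad2 came close, with Lgi2 at 8.24 TPM in replicate 2 and Gad2 at 7.47 in replicate 1.

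The areas were compared next, by the log2 ratio of TPM + 1 in replicate 2 over replicate 1, and a gene was counted as apart when it passed 1.5-fold on that scale. Of the 5 genes, 2 passed, Gad2 at -0.74 and Lgi2 at -0.61, both higher in replicate 1. The others were Gad1 at -0.18, Slc6a5 at -0.17 and Slc32a1 at 0.36. Of all 16636 genes with a summed count of at least 10, 13.1% passed 1.5-fold, 7.3% higher in replicate 1 and 5.81% higher in replicate 2. For genes with a mean TPM of 1 to 30 the share was 15.3%, and 8.59% passed higher in replicate 1. By any amount, 4 of the 5 genes had the higher TPM in replicate 1, as did 51.4% of all genes compared. The median of the 5 genes was -0.18 and that of all genes compared was -0.01. In captured tissue, fewer cells of a type and less RNA per cell cannot be told apart. With 1 library for each area these differences have no replicate check.

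Against counting error alone, 3 of the 5 genes differed between these libraries. In a two-sided exact binomial test of counts with Benjamini-Hochberg adjustment over all 16636 genes, Gad2 had an adjusted p of 1.2e-28 and Lgi2 of 7.3e-08, both higher in replicate 1. Slc32a1 had an adjusted p of 0.0249 in the same exact binomial test, higher in replicate 2. The adjusted p in that exact test was 0.0508 for Gad1 and 0.116 for Slc6a5. The test compares these libraries and takes reads as independent, and 47.6% of all genes passed it, 24.0% higher in replicate 1 and 23.7% higher in replicate 2, so passing it sets a gene little apart. When every count was first divided by 10, to allow for reads copied in amplification, Gad2 alone of the 5 passed, at an adjusted p of 0.0449 in the exact binomial test, and 0.703% of all genes did. By the deposited TPM intervals 2 of the 5 genes, Gad2 and Lgi2, did not overlap between areas, against 29.1% of all genes compared.

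The choice of scale mattered most for Gad2. Its log2 ratio was -0.74 in TPM, -1.11 in counts scaled by TMM and -1.40 in counts scaled by the spike-in total. The TMM factors were 1.0002 and 0.9998, so TMM itself changed little. Unlike TPM, the scaled counts are not set per length, and the effective length of Gad2 was 4888 bases in replicate 1 and 3963 in replicate 2. Gad1, Gad2, Slc6a5 and Lgi2 were below 0 and Slc32a1 above 0 under each of the 6 alternatives to TPM + 1. Replicate 1 had 35.0 gene counts for each spike-in count and replicate 2 had 28.4, which moves the median log2 ratio of all genes to -0.27 under spike-in scaling. Under it Gad1 stood at -0.44, Slc6a5 at -0.49, Lgi2 at -0.90 and Gad2 at -1.40, each further from 0 than in TPM.

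**Figure D4:**
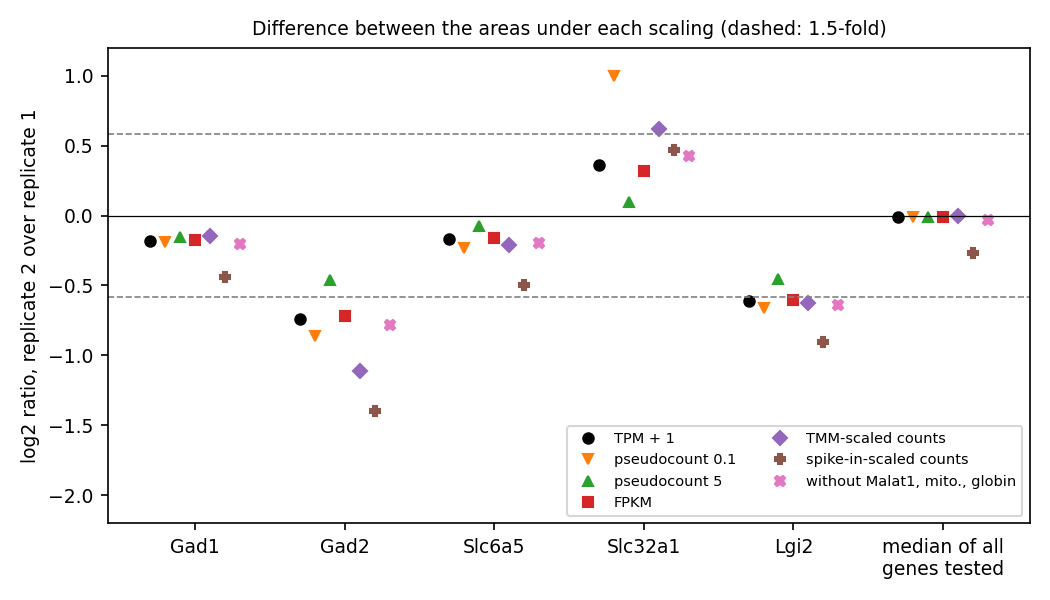
Log2 ratio of replicate 2 over replicate 1 for the 5 genes with counts and for the median of all genes compared, under the main scale (TPM + 1) and 6 alternatives; dashed lines mark 1.5-fold. Gad2 ran from -1.40 to -0.46, Lgi2 from -0.90 to -0.45, and Slc32a1, with 12 and 28 counts, from 0.10 to 1.00.

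Other genes known from Golgi cells were read beside the 6, as a list of Grm2, Nrgn, Sst, Gjd2, Chrm2 and Pax2. Of these 6, 3 passed 1.5-fold and each was higher in replicate 1, against 7.3% of all genes in that direction. Sst, which encodes the peptide somatostatin, was at 6.19 and 1.56 TPM from 53 and 13 counts. Chrm2, a muscarinic acetylcholine receptor, was at 1.69 and 0.190 TPM from 120 and 18 counts. Grm2, the metabotropic glutamate receptor by which Golgi cells are often recognized, was at 2.74 and 1.47 TPM. Nrgn, encoding the calmodulin-binding protein neurogranin, was at 1.51 and 1.29 TPM, without passing. The median log2 ratio of the list was -0.50, and Pax2 was the exception in sign at 0.210 and 0.400 TPM.

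Transcription factors of inhibitory neurons were a list of 7, of which 5 could be compared and 1 passed. Tfap2b was at 4.32 TPM in replicate 1 and 1.41 in replicate 2. Lhx1 was the highest at 15.2 and 11.3 TPM, and Pax2 and Tfap2a, at 0.230 and 0.320 TPM, lay below Tfap2b. Ptf1a, which directs progenitors to an inhibitory fate, had 0 counts in both areas.

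**Figure D5:**
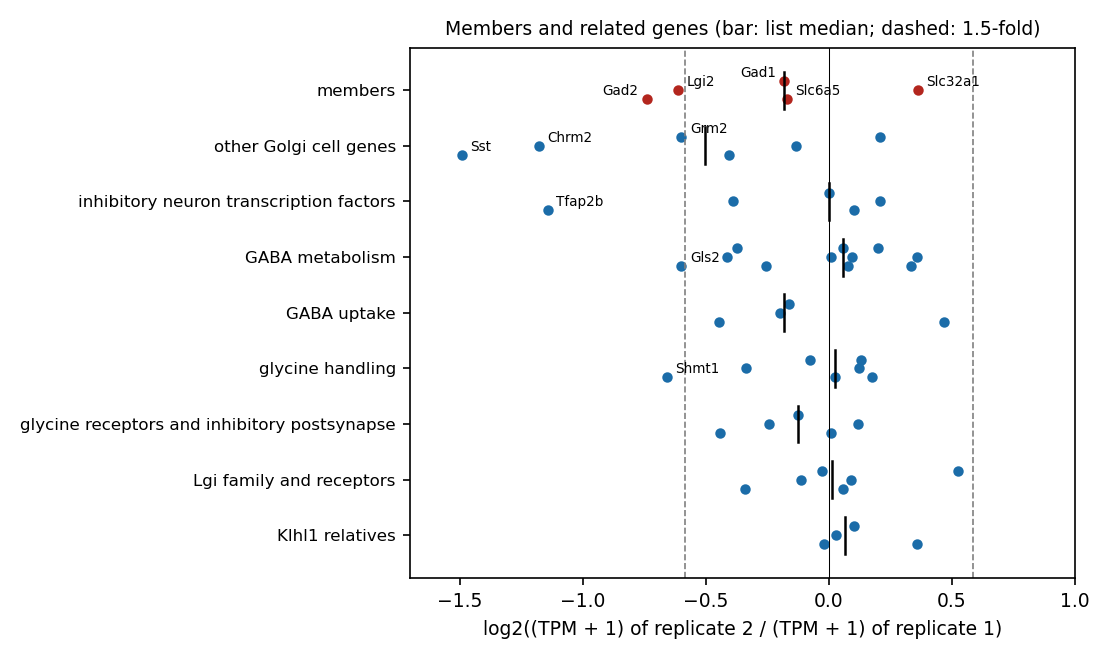
Log2 ratio of TPM + 1, replicate 2 over replicate 1, for the 5 genes with counts and for each related list; points are genes, bars list medians and dashed lines 1.5-fold, and names are given for the 5 genes and for genes past the line. The 6 related genes past 1.5-fold, Sst, Chrm2, Tfap2b, Shmt1, Grm2 and Gls2, lay on the side of replicate 1. Among all genes compared, 13.1% passed in either direction.

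The leading genes of GABA and glutamine metabolism stood above the decarboxylases in TPM. Of the 11 genes of that list, 1 passed 1.5-fold. This was Gls2, a glutaminase, at 14.7 TPM in replicate 1 and 9.35 in replicate 2. Among the highest of the list were glutamine synthetase, Glul, at 73.5 ± 12.2 TPM, the glutamine transporter Slc38a2 at 58.0 ± 2.75 and the glutamate dehydrogenase gene Glud1 at 37.2 ± 1.46 (SD, n = 2). Granule cells and glia also use these genes, so the levels belong to the whole area. The median log2 ratio of the list was 0.06.

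Of the 4 GABA uptake transporters 0 passed 1.5-fold. Of these, 3 were under 1 TPM in both areas: Slc6a12 was at 0.665 ± 0.361, Slc6a13 at 0.430 ± 0.325 and Slc6a11, the transporter of astrocytes, at 0.335 ± 0.106 (SD, n = 2).

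For glycine, the uptake transporter of glia, Slc6a9, was at 2.22 and 2.64 TPM, close to the level of the neuronal Slc6a5. Of the 7 genes of glycine handling, 1 passed, Shmt1, at 0.970 and 0.250 TPM from 18.7 and 11.5 counts. Its counts did not pass the exact binomial test (adjusted p = 0.297, Benjamini-Hochberg), its deposited TPM intervals overlapped, and its effective length was 1125 bases in replicate 1 and 2759 in replicate 2. Of the glycine cleavage system, Dld stood at 99.9 ± 3.71 TPM, Gcsh at 48.4 ± 2.96 and Amt at 42.7 ± 0.516, while Gldc, the decarboxylase of the same system, was at 0.110 ± 0.0707 (SD, n = 2). Shmt2 followed Amt at 6.07 ± 1.15 TPM. The median log2 ratio of the list was 0.02.

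On the receiving side, Glrb, the glycine receptor beta subunit that binds gephyrin, was at 125 ± 7.30 TPM, and Gphn, the gephyrin gene, at 54.9 ± 0.247. Nlgn2, which encodes an adhesion protein of inhibitory synapses, was at 4.12 ± 1.10 TPM (SD, n = 2). The alpha subunit genes were far lower. Glra2 was at 0.670 and 0.410 TPM, Glra1 and Glra3 had at most 5 counts in either area, and Glra4 had 0 in both. Of the 8 genes of this list 5 could be compared and 0 passed 1.5-fold.

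The relatives of Lgi2 and Klhl1 did not pass the 1.5-fold mark either. Among 6 genes, the Lgi receptors Adam22 and Adam23 stood at 103 ± 2.86 and 43.5 ± 1.99 TPM, and the related ligands Lgi1 and Lgi3 at 53.1 ± 13.8 and 22.3 ± 1.27 (SD, n = 2). Lgi1 was at 43.4 and 62.8 TPM, higher in replicate 2, the other side from Lgi2. Of the 4 relatives and partners of Klhl1, Rbx1 and Cul3 of the ubiquitin ligase were at 328 ± 16.3 and 66.8 ± 0.622 TPM, Klhl5 at 3.55 ± 0.0636 and Klhl4 at 2.33 ± 0.580. Over all 52 related genes in the 8 lists, 47 could be compared, 6 passed 1.5-fold higher in replicate 1 and 0 passed higher in replicate 2. Among all genes compared, 13.1% passed in either direction, 7.3% higher in replicate 1 and 5.81% higher in replicate 2.

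Markers of other cells were set beside these results, since Gad1, Gad2 and Slc32a1 are not particular to Golgi cells. Molecular layer interneuron markers summed to 42.5 TPM in replicate 1 and 39.5 in replicate 2; of 9 genes 1 passed, Tfap2b, higher in replicate 1. Most of that sum was Pvalb, at 33.1 and 31.7 TPM, so the sum follows 1 gene and was not taken as a level of these interneurons. Kit was at 0.780 and 0.840 TPM and Lypd6 at 0.690 and 0.760. In counts Lypd6 went the other way, with 40 and 12, at effective lengths of 3396 and 951 bases. By the exact binomial test on counts, 4 of the 9 markers were higher in replicate 1, Tfap2b, Lypd6, Ptprk and Sorcs3, and 2 were higher in replicate 2. Among all genes compared, 24.0% and 23.7% passed that test in these directions. Ptprk had 60 and 35 counts and Sorcs3 27 and 3; they and the effective lengths were looked at after their values were seen. Purkinje cell markers summed to 365 and 436 TPM; of 8 genes 1 passed higher in replicate 1 and 2 higher in replicate 2. Of these Pcp2 was at 91.1 and 158 TPM, Pcp4 at 113 and 68.9, and Calb1 at 6.83 and 7.89. Most of the sum came from Pcp2, Pcp4 and Gng13, the last at 140 and 185 TPM. Car8 was at 1.68 and 2.21 TPM, Ppp1r17 at 0.570 and 0.440 and Slc1a6 at 0.380 and 1.33. Unipolar brush cell markers summed to 70.0 and 99.2 TPM, with Eomes at 6.08 and 3.99, Calb2 at 49.7 and 76.1 and Lmx1a at 0.580 and 0. Of these 5 markers, 1 passed 1.5-fold higher in replicate 1, Lmx1a, and 1 higher in replicate 2, Calb2. The median log2 ratio of the list was -0.50, opposite in sign to the change of the sum, of which Calb2 was the largest part. The red blood cell list was apart, with 5 of 5 genes past 1.5-fold and a sum of 5040 TPM in replicate 1 against 390 in replicate 2. Its first members Hba-a1, Hba-a2 and Hbb-bs, whose reads can be split between near-identical gene copies, were at 982, 2178 and 1408 TPM in replicate 1 and 81.3, 163 and 137 in replicate 2.

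Endothelial markers summed to 77.3 and 52.1 TPM, with 0 of 4 genes past 1.5-fold; Cldn5 was at 5.10 and 3.10, Flt1 at 5.19 and 4.36 and Itm2a at 63.9 and 42.9. Microglial markers summed to 56.4 and 43.0 TPM, with 1 of 4 past it, higher in replicate 2; C1qa was at 4.34 and 3.64, C1qb at 24.4 and 19.4 and Tyrobp at 27.4 and 19.0. These vessel and immune sums were, like Gad2 and Lgi2, higher in replicate 1, as were the interneuron, red blood cell and astrocyte sums. The Purkinje, unipolar brush, granule and oligodendrocyte sums were higher in replicate 2. The lists of the abundant cells held 0 genes past 1.5-fold. Granule neuron markers summed to 2694 and 2957 TPM (Gabra6 925 and 1086, Neurod1 416 and 438, Etv1 349 and 377). Oligodendrocyte markers summed to 522 and 637 TPM (Mbp 249 and 312, Mobp 80.8 and 94.7), and astrocyte markers to 219 and 205 TPM (Gdf10 0.07 and 0.05, Aqp4 72.0 and 67.4, Gja1 101 and 92.0). The part of these cells in the differences of Gad2 and Lgi2 was not tested.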

How the data were processed

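RNA of 2 captured areas was sequenced, and the authors deposited 1 gene and 1 transcript table for each. As the authors deposited them, values are expected counts, estimated per gene or transcript, and TPM and FPKM, which the authors normalized for length and library total. The deposited score columns give interval bounds on TPM, of unstated level, and a posterior SD of the count, and the deposited percent column holds the share of a gene's TPM on each transcript. The submitters' processing notes name mm10 and GENCODE M4. The aligner and the counting program are not given in the labels or headers.

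Names, types and positions were taken by unversioned ID from GENCODE M21 (GRCm38, the build also called mm10); 42462 of 43346 IDs matched. Of 69691 rows, 97 spike-in and 26248 numeric rows were left out of gene totals; spike-ins were 2.78% and 3.40% of all counts. A fold is on log2(TPM + 1) over genes with a summed count of at least 10. Counts were rounded for the exact binomial test (SciPy 1.17.1, Benjamini-Hochberg at 0.05) and for TMM factors (edgeR 4.0.16). The exact test was tried on simulated counts with counting error alone, which cannot show how it acts on amplified reads. Amplified reads are not independent molecules, so intervals and floors cover counting error only. Genes were named by a rule: the 6 genes; of each related list the 4 highest, those past 1.5-fold and those at 0 in both libraries; of marker lists the first 3. A few genes that the rule names are not reported here. Pax2 as a Golgi gene, Slc6a9, Gldc, Glra1, Glra2 and Glra3 fall outside it and were named after their values were seen. The same holds for Gng13, Car8, Ppp1r17 and Slc1a6, the antisense genes and the comparison of transcript models. With 2 libraries a pattern is 1 difference, so no gene was named for likeness. Genes and lists were chosen with earlier results of these data known.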

Additional observations from a re-analysis of the deposited data

How the results depend on the processing

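Of 30 log2 ratios of the 5 genes recomputed under an alternative, 24 moved by less than the 95% counting error of the ratio, 6 moved by more and 0 changed sign. The count of 2 genes past 1.5-fold was 0 with a pseudocount of 5 and 0 at a fold of 2, 3 with a pseudocount of 0.1 and 3 in TMM-scaled counts, where Slc32a1 was added; the share of all genes past it was 1.79%, 3.16%, 26.7% and 16.8%. The count of 3 genes beyond counting error was 1 with counts divided by 10. Of the related genes, 6 higher in replicate 1 became 1 with a pseudocount of 5, and 0 higher in replicate 2 became 3 with a pseudocount of 0.1; a pseudocount acts on genes of low TPM. In whole-gene TPM, the ratio of Gad1 to Gad2 was 2.79 to 4.50 with either replicate left out. That of Slc6a5 to Slc32a1 was 3.56 to 10.04. The Gad1 to Gad2 ratio depends on transcripts not annotated as coding, as given above. Leaving out a replicate leaves no difference between areas to compute. No paired analysis was possible because the design has 1 group. Depth limits Slc32a1, with 12 and 28 counts, and Klhl1, with 0.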
